A study of Mus musculus with 16 samples.

Results

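The Toll-like receptors of splenic dendritic cells (DCs) were followed here together with Unc93b1 and Myd88, in 10 genes fixed by name: Tlr2, Tlr3, Tlr4, Tlr7, Tlr9, Tlr11, Tlr12, Tlr13, Unc93b1 and Myd88. All 10 were found among the 17128 genes of the plasmacytoid DC (pDC) table and among the 17721 genes of the conventional DC (cDC) table. RNA was sequenced from DCs sorted from the spleens of C57BL/6 mice aged 6 to 8 weeks that carried loxP-flanked Trim33 alleles (Trim33 fl/fl, called WT) or these alleles with the Itgax-Cre transgene (Trim33 fl/fl Itgax-Cre, the conditional knockout or cKO). Trim33 encodes a ubiquitin ligase and transcriptional regulator of the TRIM family, and Itgax-Cre acts in CD11c-expressing cells, so that the gene is lost in DCs after they begin to express CD11c. The 16 libraries formed 6 groups, with 3 WT and 3 cKO libraries of pDCs (CD11c+ SiglecH+), 2 of each genotype from cDC1s, and 3 of each genotype from cDC2s. The cDCs were sorted as CD11c+ MHC II+ cells without SiglecH, with CD24 but no CD172a for cDC1s and the reverse for cDC2s. Per the study's supplement, every library came from a pool of several mice, with more animals in the cKO pools than in the WT pools. P-values thus measure the spread between pools, and genotype and pool size cannot be told apart.

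Toll-like receptors are membrane proteins that recognise conserved microbial molecules. TLR3, TLR7, TLR9 and TLR13 bind nucleic acids inside endosomes, TLR11 and TLR12 bind the profilin of apicomplexan parasites, and TLR2 and TLR4 bind bacterial lipoproteins and lipopolysaccharide at the cell surface. UNC93B1 is the chaperone that carries the endosomal receptors out of the endoplasmic reticulum, and MYD88 is the adaptor used by every one of these receptors except TLR3. DC subsets differ in the receptors they use: pDCs are known for TLR7 and TLR9, and cDC1s for TLR3.

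The member genes lie apart in the mouse genome. On GRCm38.p6, Tlr7 lies on the minus strand of chromosome X at chrX:167303380-167330574, with its paralog Tlr8 next to it at chrX:167241123-167264329, 39050 bases away. Tlr13 is also X-linked, on the plus strand at chrX:106143275-106160493. Tlr3 lies at chr8:45395665-45411075, where the annotated antisense gene Gm45542 overlaps it, so that reads of both could not be told apart without strand. Tlr11 lies at chr14:50357914-50363663 and Tlr12 at chr4:128615446-128618619. Unc93b1 lies at chr19:3935158-3949340. Myd88 lies on the minus strand at chr9:119335934-119340018, where the annotated protein-coding genes Slc22a14 (minus strand) and Acaa1a (plus strand) overlap it. The part of these overlaps in the Tlr3 and Myd88 values was not tested.

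Tlr11 and Tlr12, whose proteins sense the same ligand, were both higher in cDC1s than in cDC2s but differed from each other in pDCs, and the 250 bases before their start sites are therefore shown, from RefSeq on GRCm38.p6, 5′ to 3′ along the gene. Capitals mark matches to GAGGAAGT, a PU.1 motif, and GAAANNGAAA, an interferon-stimulated response element, both searched on both strands. The windows were chr14:50357664-50357913 on the plus strand for Tlr11 and chr4:128618620-128618869 on the minus strand for Tlr12.
Tlr11: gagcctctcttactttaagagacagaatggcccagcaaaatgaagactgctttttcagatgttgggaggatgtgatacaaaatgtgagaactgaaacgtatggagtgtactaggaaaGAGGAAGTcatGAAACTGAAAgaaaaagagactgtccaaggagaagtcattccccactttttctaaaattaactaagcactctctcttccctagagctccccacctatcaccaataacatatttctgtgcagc
Tlr12: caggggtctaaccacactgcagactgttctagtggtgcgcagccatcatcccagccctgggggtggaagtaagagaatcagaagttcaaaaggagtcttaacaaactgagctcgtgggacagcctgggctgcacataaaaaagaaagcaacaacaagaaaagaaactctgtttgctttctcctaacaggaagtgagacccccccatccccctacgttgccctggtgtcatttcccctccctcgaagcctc
The Tlr11 window held both motifs, separated by 3 bases, and the Tlr12 window held neither string. Only exact strings were searched, and the Tlr12 window holds caggaagt, which shares the letters AGGAAGT with the PU.1 string. Over all 32851 promoter windows of this length, 2.44% held the PU.1 string and 2.98% the interferon-stimulated response element string. Promoter windows were found for 7 of the 10 members, not for Tlr4, Tlr7 and Unc93b1. Of these 7, only Tlr11 held the PU.1 string, and 2, Tlr11 and Myd88, held the response element string. A match describes the letters only.

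Expression is given as TPM, the share of transcripts after adjustment for transcript length, which can be compared between genes. Trim33 itself was at 20.6, 23.8 and 22.3 TPM in WT pDCs and 12.6, 16.5 and 11.7 in cKO pDCs, at 15.5 and 18.2 against 7.88 and 7.71 in cDC1s, and at 20.6, 18.2 and 17.2 against 7.93, 7.13 and 8.07 in cDC2s. WT and cKO libraries did not overlap in any subset. A fall of Trim33 was called in cDC1s (log2 fold change -1.02, SE 0.13, limma adjusted p = 3.49e-04) and in cDC2s (-1.17, SE 0.11, adjusted p = 1.26e-04), but not in pDCs (-0.68, SE 0.13, adjusted p = 0.0301; with the replicate number as a block, adjusted p = 0.00361). Calls needed an adjusted p no higher than 0.01 together with a log2 change of 0.5 or more in either direction.

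The summed pDC identity genes were at 21281 to 22838 TPM in pDCs and 253 to 399 in cDCs, and the summed cDC1 identity genes at 7544 to 8768 in cDC1s and 616 to 807 in the other subsets. The summed cDC2 identity genes were at 3761 to 4222 TPM in cDC2s and 392 to 716 in cDC1s, but also at 4306 to 4770 in pDCs. Depth, estimated from the steps of the low values, was 17.6 to 20.2 M reads per library. A pair of cDC libraries stood apart in 4 Y-linked genes, whose summed level was 4.07 TPM in WT cDC1 replicate 1 and 4.94 in WT cDC2 replicate 2, against 70.1 to 115 in the other 8 cDC libraries. This sum ranged from 34.2 to 177 TPM in pDCs. Results on the X-linked members are therefore also given without these libraries.

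Each subset had its own set of receptors. Across the 12 mouse Toll-like receptor genes measured (the 8 members with Tlr1, Tlr5, Tlr6 and Tlr8), Tlr7 made up 39.6% of the summed mean TPM of WT pDCs, Tlr9 36.5% and Tlr12 19%. In WT cDC1s, Tlr11 made up 36.9%, Tlr3 26.8%, Tlr12 13.6% and Tlr13 8.76%. In WT cDC2s the largest shares were 28.1% for Tlr1, the partner of TLR2 in sensing triacylated lipoproteins, 16.3% for Tlr13, 15.6% for Tlr9 and 15.2% for Tlr7. The 7 endosomal receptors together made up 95.2% to 95.8% of receptor TPM in the WT pDC libraries, 93.2% to 93.6% in WT cDC1s and 53.1% to 57.1% in WT cDC2s. These shares were 95.2% to 95.6%, 93.9% to 94.1% and 54.4% to 58.2% in the cKO libraries, which overlapped those of WT in pDCs and cDC2s and lay just above them in cDC1s. pDC and cDC libraries were deposited in separate tables that hold different numbers of genes, and were fitted separately. Levels across those tables therefore stand side by side with no test.

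**Figure D1:**
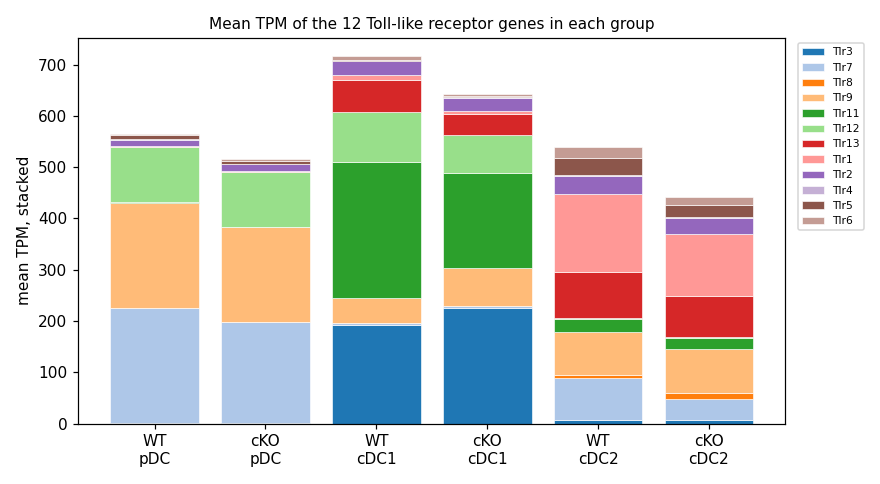
Stacked mean TPM of the 12 Toll-like receptor genes in each of the 6 groups (2 or 3 libraries each). Tlr7, Tlr9 and Tlr12 fill most of the pDC bars, Tlr3, Tlr11 and Tlr12 most of the cDC1 bars, and the cDC2 bars hold a large Tlr1 segment and a Tlr7 segment that is smaller in cKO (41.9 TPM) than in WT (81.8 TPM).

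Among the nucleic acid sensors, Tlr7, which senses single-stranded RNA, was at 221, 226 and 225 TPM in WT pDCs, at 80.7, 87.9 and 76.8 in WT cDC2s and at 3.90 and 5.28 in WT cDC1s. The WT groups thus stood in the order pDC, cDC2, cDC1 with no overlap. Tlr9, the sensor of unmethylated CpG DNA, was at 237, 197 and 186 TPM in WT pDCs, at 72.9, 76.5 and 102 in WT cDC2s and at 53.4 and 43.4 in WT cDC1s. Its order over the subsets was that of Tlr7, with a smaller gap between cDC2s and cDC1s.

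Tlr3, the sensor of double-stranded RNA, was at 206 and 177 TPM in WT cDC1s, at 7.35, 6.38 and 6.21 in WT cDC2s and at 0.54, 0.35 and 0.74 in WT pDCs. Tlr13, which binds a conserved stretch of bacterial ribosomal RNA, was at 71.6 and 53.7 TPM in WT cDC1s and at 74.5, 98.6 and 90.8 in WT cDC2s, but at 0.57, 0.89 and 0.39 in WT pDCs. Tlr13 was thus a receptor of both cDC subsets and Tlr3 of cDC1s, while in pDCs both were below 1 TPM in WT, where 3 reads correspond to 0.083 to 0.089 TPM.

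The profilin sensors were not matched to each other across subsets. Tlr11 was at 282 and 245 TPM in WT cDC1s, at 24.9, 27.5 and 23.2 in WT cDC2s and at 0.67, 0.45 and 0.49 in WT pDCs. Tlr12 was at 106 and 88.3 TPM in WT cDC1s, at 123, 100.1 and 99.6 in WT pDCs and at 3.59, 2.57 and 2.71 in WT cDC2s. pDCs therefore held Tlr12 at the level of cDC1s, with overlapping values, and almost no Tlr11, while cDC2s held more Tlr11 than Tlr12.

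The surface receptors among the members were lower. Tlr2 was at 41.8, 35.4 and 29.0 TPM in WT cDC2s, at 25.9 and 28.9 in WT cDC1s and at 14.1, 10.8 and 11.9 in WT pDCs. Tlr4 was at 2.65, 3.08 and 2.27 TPM in WT cDC2s, at 1.37 and 1.28 in WT cDC1s and at 0.68, 0.75 and 0.97 in WT pDCs, the lowest WT maximum of any member.

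Unc93b1 was the most abundant member in every library, with 1578, 1516 and 1526 TPM in WT pDCs, 1035 and 925 in WT cDC1s and 791, 870 and 954 in WT cDC2s. The cDC1 and cDC2 values overlapped. Set against the summed TPM of the 7 endosomal receptors it carries, Unc93b1 was at a ratio of 2.71 to 2.98 in WT pDCs, 1.43 to 1.51 in WT cDC1s and 2.84 to 3.09 in WT cDC2s. The ratio was 2.78 to 3.13 in cKO pDCs, 1.26 to 1.34 in cKO cDC1s and 2.82 to 2.90 in cKO cDC2s, so that it was lowest in cDC1s of both genotypes. Myd88 was at 118, 108 and 117 TPM in WT pDCs, 101 and 86.0 in WT cDC1s and 84.2, 122 and 134 in WT cDC2s. The cDC2 values spanned those of both other subsets.

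**Figure D2:**
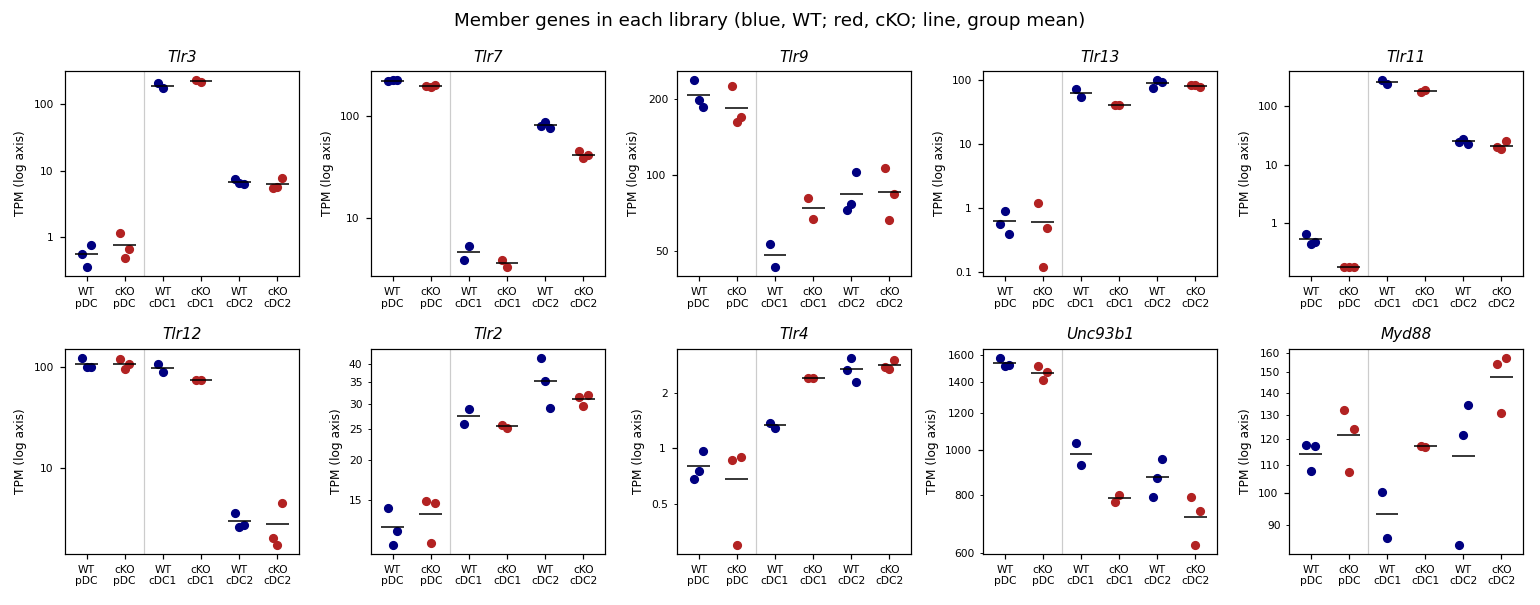
TPM of each of the 10 members in every library (points, on log axes that differ between panels) by group, with the group mean as a line, WT in blue and cKO in red. The grey line separates the pDC and cDC tables, which were deposited and fitted separately. Tlr3, Tlr11 and Tlr13 are near or below 1 TPM in pDCs, Tlr7 is near 4 TPM in cDC1s, and Unc93b1 and Myd88 are high in all groups.

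The WT cDC1s were compared directly with the WT cDC2s, which share a table. Of the 10 members, 5 were called (31.7% of all genes tested were called), 3 of them higher in cDC1s (10.9% of all genes) and 2 lower (20.8%). Tlr3 was 25.2-fold higher on the log2(TPM + 1) scale (log2 difference 4.65, SE 0.15, limma adjusted p = 1.16e-08), Tlr12 24.9-fold (4.64, SE 0.26, adjusted p = 2.75e-07) and Tlr11 10.1-fold (3.33, SE 0.14, adjusted p = 3.59e-08). Tlr7 was 14.9-fold lower (-3.90, SE 0.13, adjusted p = 1.23e-08), and its difference was -3.72 without WT cDC1 replicate 1 and -3.85 without WT cDC2 replicate 2. Tlr4 was 1.57-fold lower (-0.65, SE 0.14, adjusted p = 0.00303), a call that was lost under 9 of 19 alternative settings, where its adjusted p reached 0.0873.

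The other 5 members were not called between the WT cDC subsets. The difference for Tlr9 was -0.77 (SE 0.21, adjusted p = 0.0109) and for Tlr13 -0.49 (SE 0.14, adjusted p = 0.0159), both outside the threshold on p. Without WT cDC1 replicate 1 Tlr13 was called, at -0.69 (adjusted p = 0.00672), and without WT cDC2 replicate 2 it was at -0.40 (adjusted p = 0.0504). Tlr2 differed by -0.35 (95% CI -0.65 to -0.04), Myd88 by -0.26 (95% CI -0.65 to 0.14) and Unc93b1 by 0.17 (95% CI -0.10 to 0.44). Each of the 4 receptors outside the members was called lower in cDC1s, at -3.87 for Tlr1, -4.51 for Tlr5, the flagellin receptor, -1.34 for Tlr6, a second partner of TLR2, and -2.61 for Tlr8, with limma adjusted p of 5.50e-05 or less. Tlr5 and Tlr8 were under 1 TPM in WT cDC1s, and their differences ranged from -5.89 to -3.04 and from -4.55 to -1.28 over the alternatives. The median difference of all genes was -0.17.

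**Figure D3:**
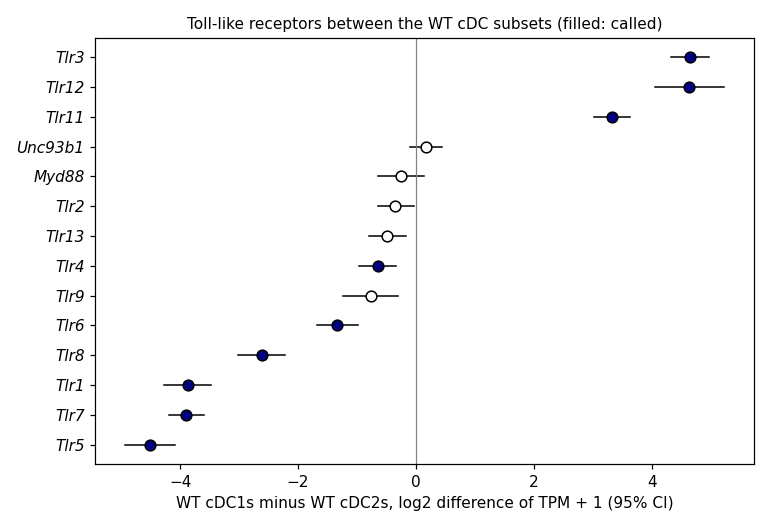
Log2 difference of TPM + 1 between WT cDC1s (2 libraries) and WT cDC2s (3 libraries) for the 12 Toll-like receptor genes, Unc93b1 and Myd88, with 95% CI, and filled points for called genes. Tlr3, Tlr12 and Tlr11 lie between 3.33 and 4.65, Tlr7, Tlr1 and Tlr5 between -4.51 and -3.87, and Unc93b1 and Myd88 near 0.

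Loss of Trim33 was then compared with WT within each subset. In pDCs, 6 of the 10 members had a mean of at least 1 TPM and were tested, and none was called by limma (1.05% of all genes tested were called), with 1 of the 6 at an unadjusted p under 0.05. That gene was Tlr7, at 221, 226 and 225 TPM in WT and 197, 193 and 200.2 in cKO pDCs. All cKO libraries lay below all WT libraries, by a small step (log2 fold change -0.19, SE 0.05, adjusted p = 0.0744).

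Tlr9 was at 237, 197 and 186 TPM in WT and 223, 161 and 169 in cKO pDCs (-0.17, 95% CI -0.49 to 0.15, adjusted p = 0.531), and these groups overlapped. The labels do not pair the pDC libraries. Between same-numbered libraries, Tlr9, Unc93b1 and Tlr7 were lower in cKO each time, Tlr2 was higher each time, and Tlr12 and Myd88 went both ways. The share of all genes that moved 1 way each time was not counted. With the replicate number as a block limma called none of these members (adjusted p = 0.0891 for Tlr9, 0.382 for Unc93b1 and 0.0431 for Tlr7). Tlr12 was at 121.5, 95.6 and 107 TPM in cKO pDCs, close to its WT values (0.00, 95% CI -0.26 to 0.26). Unc93b1 was at 1516, 1410 and 1469 TPM in cKO pDCs (-0.07, 95% CI -0.20 to 0.05) and Myd88 at 132, 107 and 124 (0.08, 95% CI -0.11 to 0.28). The intervals of these 3 genes did not reach the log2 change of 0.5 used for calls in either direction.

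Tlr2 was at 14.8, 11.0 and 14.7 TPM in cKO pDCs (0.12, 95% CI -0.21 to 0.45). The 4 members below the filter were Tlr3 at 0.47 to 1.13 TPM, Tlr4 at 0.30 to 0.89, Tlr13 at 0.12 to 1.19 and Tlr11 at 0.18 in each cKO library. Their means were below the 1 TPM required for a test, and no fold change is given. The median change of the 6 members tested was -0.03, beside -0.05 over all genes.

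In cDC1s all 10 members were tested and none was called by limma, while 5 had an unadjusted p under 0.05 and 22.4% of all genes tested were called. With 2 libraries of each genotype, WT and cKO values did not overlap in any of the 10, even Tlr2 at 93.1% of WT. The share of all genes without overlap was not counted, so the lack of overlap does not set a member apart here. The median change was -0.19 over the members and 0.17 over all genes, so that member values are also to be read against a general shift of 0.17. Tlr13 was at 71.6 and 53.7 TPM in WT and 40.6 and 40.8 in cKO cDC1s (-0.60, SE 0.15, adjusted p = 0.0125). Both cKO libraries lay below both WT libraries, and the gene was called lower under 5 of 19 alternatives. Without WT cDC1 replicate 1, the library with little Y-linked RNA, its change was -0.39 (adjusted p = 0.106).

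Tlr11 was at 282 and 245 TPM in WT and 178 and 193 in cKO cDC1s (-0.51, SE 0.15, adjusted p = 0.0224), again without overlap, and was called lower under 2 of 19 alternatives. Tlr12, with which TLR11 pairs, was at 106 and 88.3 TPM in WT and 75.2 and 74.5 in cKO cDC1s (-0.37, 95% CI -1.01 to 0.27, adjusted p = 0.333). Both profilin sensors were thus lower in the cKO libraries without passing the test. In cDC1s Tlr11 held 36.9% of receptor TPM in WT and 28.9% in cKO, and Tlr3 26.8% and 35%, so that Tlr11 had the largest share in WT and Tlr3 in cKO, a difference in shares that was not tested.

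Tlr3 was at 206 and 177 TPM in WT and 232 and 217 in cKO cDC1s (0.23, 95% CI -0.13 to 0.59, adjusted p = 0.280). Tlr9 was at 53.4 and 43.4 TPM in WT and 81.4 and 66.9 in cKO cDC1s (0.61, SE 0.23, adjusted p = 0.0571). Tlr4 was at 1.37 and 1.28 TPM in WT and 2.40 and 2.41 in cKO cDC1s (0.55, SE 0.15, adjusted p = 0.0161), and was called higher under 1 of 19 alternatives. In all 3 of these genes the cKO libraries lay above the WT libraries, and none passed both thresholds. A lack of overlap held for every member in cDC1s.

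Tlr7, already low in cDC1s, was at 3.90 and 5.28 TPM in WT and 3.86 and 3.31 in cKO (-0.28, 95% CI -0.60 to 0.04), and its change without WT cDC1 replicate 1 was -0.46 (limma adjusted p = 0.0565). Tlr2 was at 25.9 and 28.9 TPM in WT and 25.8 and 25.2 in cKO cDC1s (-0.10, 95% CI -0.43 to 0.24). Unc93b1 was at 1035 and 925 TPM in WT and 772 and 799.9 in cKO cDC1s (-0.32, SE 0.13, adjusted p = 0.0861), and Myd88 at 101 and 86.0 against 117 and 117 (0.33, 95% CI -0.11 to 0.76). The chaperone was thus lower and the adaptor higher in both cKO cDC1 libraries, neither past the threshold.

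The cDC1 libraries also differed in other cells' and other states' genes. The 16 mature migratory DC genes (Ccr7, Fscn1, Cd83 and others), none at 0 in every library of a group, summed to 2349 to 3374 TPM in WT and 668 to 806 in cKO cDC1s, with 14 of the 16 called lower. The 10 B cell markers summed to 164 to 196 TPM in WT and 67.4 to 71.7 in cKO, with 2 of the 7 tested, Ms4a1 and Fcrla, called lower. Most of this difference was Fcrla, with a mean of 149 TPM in WT and 48.5 in cKO, and the median change of the list was -0.11 beside 0.17 over all genes. The 18 monocyte and macrophage markers summed to 761 to 964 and 774 to 782, with 1 of 16 tested called higher and 2 lower. Most of this sum was Lyz2, with a mean of 423 TPM in WT and 284 in cKO, and Cd68, at 325 and 396. The median change of the list was -0.69 beside 0.17 over all genes, and 8 of the 16 had an unadjusted p under 0.05 by limma.

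The identity genes of the DC subsets also moved in cDC1s. The 14 cDC1 identity genes summed to 8682 to 8768 TPM in WT and 7544 to 7659 in cKO, with Clec9a, Cadm1, Itgae and Sult1a1, 4 of the 14, called lower. The 15 cDC2 identity genes summed to 392 to 514 in WT and 698 to 716 in cKO, with 6 called higher, among them Itgam and Clec10a, and 2 lower, Cd4 and Esam. Of the 13 pDC identity genes tested, 3 were called higher and 3 lower (sums of 253 to 264 and 337 to 352 TPM). The 8 NK cell markers summed to 49.0 to 62.4 TPM in WT and 102 to 114 in cKO, with 1 of the 3 tested, Klrk1, called higher. Most of this sum was Klrk1, with a mean of 52.6 TPM in WT and 105.7 in cKO. The median change of the 3 NK cell markers tested was 0.06 beside 0.17 over all genes. The part of all these lists in the member values was not tested. In sorted bulk populations, fewer cells that hold a transcript and less RNA per cell cannot be told apart.

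In cDC2s Tlr7 was the member that fell with loss of Trim33. It was at 80.7, 87.9 and 76.8 TPM in WT and 45.7, 38.6 and 41.5 in cKO cDC2s. The lowest WT library lay above the highest cKO library by more than either group's range, and the fold change was 1.93-fold lower (log2 fold change -0.95, SE 0.12, 95% CI -1.21 to -0.69, limma adjusted p = 8.00e-04). Of the 10 members tested in cDC2s, this 1 was called (7.15% of all genes tested were called, and 3.56% called lower), with 3 at an unadjusted p under 0.05. The call held under all 19 alternatives, with log2 fold changes from -1.01 to -0.89 and adjusted p from 3.11e-04 to 0.00601. Without WT cDC2 replicate 2, the library with little Y-linked RNA, the change was -0.90 (adjusted p = 0.00391).

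Tlr8, the neighbour of Tlr7 on the X chromosome, was at 5.18, 7.38 and 5.98 TPM in WT and 11.2, 9.0 and 12.9 in cKO cDC2s. Here every cKO library lay above every WT library, the opposite of Tlr7 (0.74, SE 0.16, adjusted p = 0.0101). The gene just missed the threshold and was called under 6 of 19 alternatives. Without WT cDC2 replicate 2 its change was 0.86 (adjusted p = 0.0111). The third X-linked receptor, Tlr13, was at 74.5, 98.6 and 90.8 TPM in WT and 82.6, 81.4 and 77.2 in cKO cDC2s, with overlap (-0.12, 95% CI -0.40 to 0.16, and -0.03 without WT cDC2 replicate 2).

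**Figure D4:**
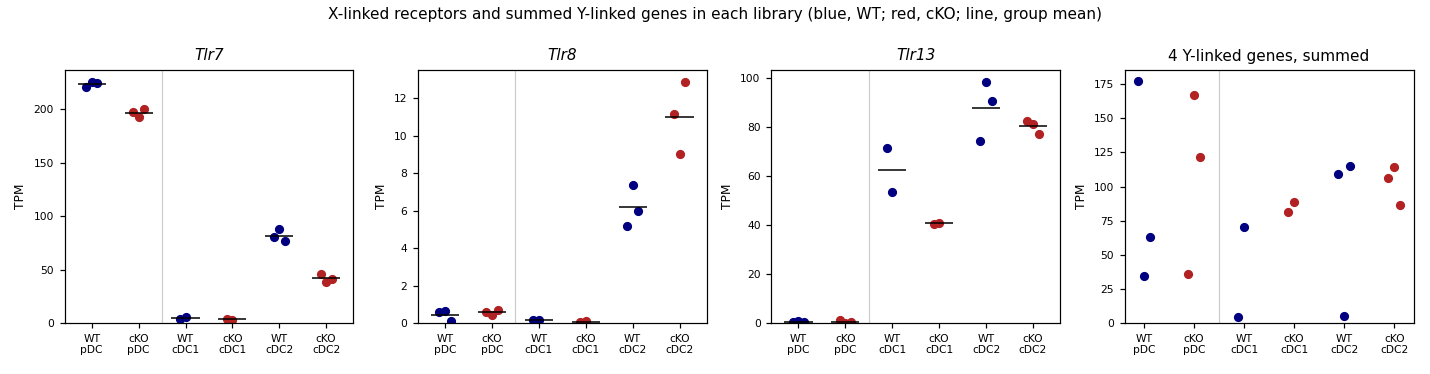
TPM of the X-linked receptors Tlr7, Tlr8 and Tlr13 and the summed TPM of 4 Y-linked genes in every library (points) by group, with the group mean as a line in the receptor panels, WT in blue and cKO in red. In cDC2s Tlr7 is at 38.6 to 45.7 TPM in cKO against 76.8 to 87.9 in WT, Tlr8 is at 9.0 to 12.9 against 5.18 to 7.38, and Tlr13 overlaps. WT cDC1 replicate 1 and WT cDC2 replicate 2 have Y-linked sums under 5 TPM.

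The other nucleic acid sensors kept close values in cDC2s. Tlr9 was at 72.9, 76.5 and 102 TPM in WT and 107, 66.5 and 84.2 in cKO (0.02, 95% CI -0.39 to 0.43), and Tlr3 at 7.35, 6.38 and 6.21 against 5.38, 5.60 and 7.77 (-0.09, 95% CI -0.38 to 0.21). The profilin sensors overlapped too, with Tlr11 at 24.9, 27.5 and 23.2 against 20.4, 18.6 and 25.4 TPM (-0.23, 95% CI -0.50 to 0.04) and Tlr12 at 3.59, 2.57 and 2.71 against 2.01, 1.73 and 4.53 (-0.14, 95% CI -0.66 to 0.38). Of the surface receptors, Tlr2 was at 41.8, 35.4 and 29.0 against 31.5, 29.6 and 31.9 TPM (-0.17, 95% CI -0.45 to 0.10) and Tlr4 at 2.65, 3.08 and 2.27 against 2.75, 2.69 and 2.99 (0.06, 95% CI -0.21 to 0.34).

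Unc93b1 was at 791, 870 and 954 TPM in WT and 790.5, 624 and 736 in cKO cDC2s. The highest cKO library almost reached the lowest WT library (-0.28, SE 0.11, adjusted p = 0.0954). Myd88 was at 84.2, 122 and 134 TPM in WT and 154, 131 and 157 in cKO cDC2s (0.40, SE 0.16, adjusted p = 0.109), and these groups overlapped. The median change was -0.13 over the members and -0.03 over all genes.

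In cDC2s the 18 monocyte and macrophage markers, none at 0 in every library of a group, summed to 1850 to 2321 TPM in WT and 3088 to 3976 in cKO, with 3 of the 16 tested, Lyz2, Fcgr1 and Ace, called higher. Most of the rise was Lyz2, a lysozyme gene, at 617, 1048 and 798 TPM in WT and 1945, 1981 and 2449 in cKO, and the median change of the list was 0.17 beside -0.03 over all genes. The 16 mature migratory DC genes summed to 1994 to 2600 in WT and 1249 to 1517 in cKO, with 4 called lower. The 15 cDC2 identity genes summed to 3761 to 3903 TPM in WT and 3797 to 4222 in cKO, with Itgam, Clec10a, Mgl2, Ccr2 and Csf1r called higher and Cd4, Esam, Irf4 and Dtx1 lower. The 10 B cell markers summed to 75.9 to 87.3 in WT and 76.4 to 79.0 in cKO, with 1 of the 7 tested called higher, Fcrla, and 3 lower, Ms4a1, Cr2 and Blk. The 8 NK cell markers summed to 25.3 to 43.9 and 59.9 to 68.4, with 1 of the 3 tested, Klrk1, called higher. Most of this sum was Klrk1, with a mean of 28.6 TPM in WT and 58.35 in cKO. The median change of the 3 NK cell markers tested was -0.36 beside -0.03 over all genes. The part of these lists in the Tlr7 and Tlr8 values was not tested.

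**Figure D5:**
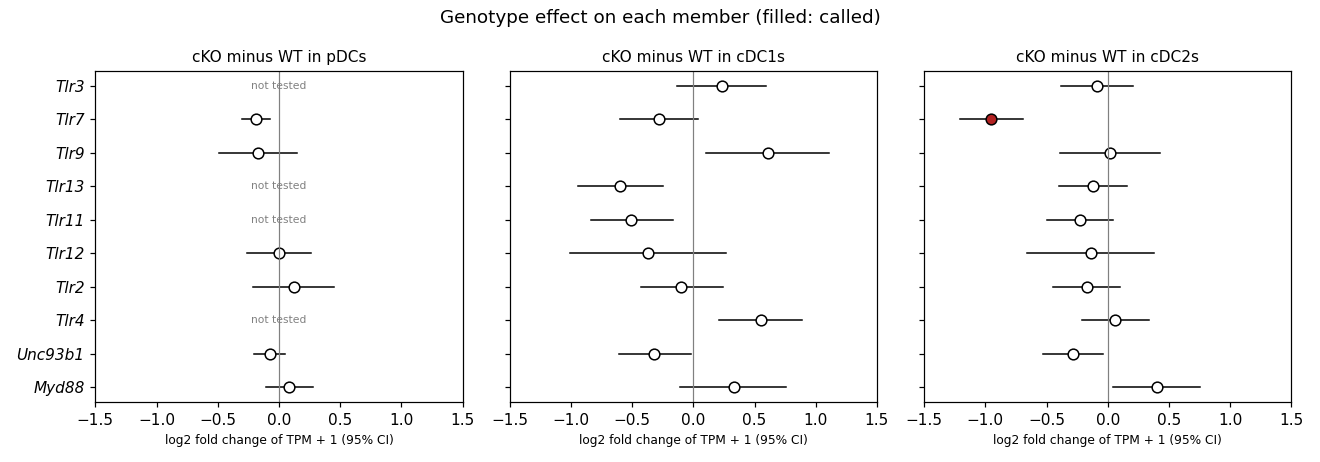
Log2 fold change of TPM + 1 in cKO against WT for the 10 members in pDCs (3 against 3 libraries), cDC1s (2 against 2) and cDC2s (3 against 3), with 95% CI, and a filled point for a called gene. Tlr7 in cDC2s, at -0.95, is the one filled point, and 4 members were too low in pDCs to be tested.

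Tlr7 lay lower in the cKO than in the WT libraries of all 3 subsets, at means of 87.9% of WT in pDCs, 78.1% in cDC1s and 51.3% in cDC2s. It was called in cDC2s only. In cDC1s, where WT and cKO values lay apart in every member, the gap was from 3.86 to 3.90 TPM. The share of all genes that were lower in every subset was not counted. The difference between the cDC1 and cDC2 effects was tested directly, in a comparison that uses the same libraries as both. For Tlr7 it was 0.67 (SE 0.19, 95% CI 0.26 to 1.09, adjusted p = 0.0460), which did not pass the threshold, and the median of all genes was 0.22. Without WT cDC1 replicate 1 it was 0.49 (adjusted p = 0.164) and without WT cDC2 replicate 2 it was 0.62 (adjusted p = 0.0805). None of the 10 members was called by limma (2.56% of all genes tested were called), with 3 at an unadjusted p under 0.05. The other 2 were Tlr4, at 0.49 (95% CI 0.06 to 0.93, adjusted p = 0.123), and Tlr13, at -0.48 (95% CI -0.92 to -0.03, adjusted p = 0.140), which was -0.27 without WT cDC1 replicate 1. The pDC effect could not be tested against these, since it comes from the other table.

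Of the 4 receptors outside the members, Tlr6 was called. It was at 9.97 and 6.51 TPM in WT and 3.16 and 2.90 in cKO cDC1s, without overlap (-1.17, SE 0.17, limma adjusted p = 6.56e-04), and was called under all 19 alternatives. In cDC2s Tlr6 was at 21.2, 22.6 and 22.0 TPM in WT and 15.5, 13.7 and 16.3 in cKO (-0.51, SE 0.14, adjusted p = 0.0291), which also did not overlap. Tlr5 was at 36.2, 29.2 and 34.6 TPM in WT and 26.6, 18.7 and 21.8 in cKO cDC2s (-0.56, SE 0.17, adjusted p = 0.0417). Tlr1 was at 136, 175 and 143 TPM in WT and 121, 121 and 119.8 in cKO cDC2s (-0.32, SE 0.16, adjusted p = 0.192). In cDC2s the cKO libraries lay below WT in each of these 3 surface receptors, none of which was called there. The values of the surface receptors Tlr2 and Tlr4 overlapped in cDC2s. The share of all genes without overlap was not counted.

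The pathway around the receptors was followed in 9 lists of 96 genes in all, beyond the members. In pDCs none of the 78 genes tested was called by limma, with 9 at an unadjusted p under 0.05. In cDC1s 6 of 83 were called higher, where 15.8% of all genes were, and 12 lower, where 6.56% of all genes were, with a median change of -0.09 beside 0.17 over all genes. In cDC2s 1 of 83 was called higher, where 3.59% of all genes were, and 1 lower, where 3.56% of all genes were.

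Among helpers of receptor folding and traffic, 3 of 13 were called higher in cDC1s (15.8% of all genes were) and none lower (6.56%). The median change of these 13 was 0.21 beside 0.17 over all genes. Lrrc59, which takes part in the export of endosomal receptors, was at 62.6 and 70.0 TPM in WT and 124 and 112 in cKO cDC1s (0.83, adjusted p = 5.27e-04), Cnpy4, a chaperone homolog, at 7.80 and 7.62 against 15.9 and 14.9 (0.92, adjusted p = 3.42e-04), and Slc15a3, a lysosomal transporter, at 5.87 and 8.59 against 13.3 and 13.9 (0.85, adjusted p = 0.00314). Unc93b1 itself was lower in cKO cDC1s and not called, as given above. Of 5 coreceptors tested, Ly96, the lipopolysaccharide-binding partner of TLR4, was at 21.0 and 18.5 TPM in WT and 6.75 and 10.8 in cKO cDC1s (-1.11, adjusted p = 0.00219). Of the 5 processing proteases tested, none was called in any subset by limma, with 3 at an unadjusted p under 0.05 in cDC1s and none in pDCs or cDC2s.

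Of 4 adaptors tested in cDC1s, Ticam2, the bridging adaptor of TLR4, was at 2.99 and 3.28 TPM in WT and 5.44 and 6.48 in cKO (0.75, adjusted p = 0.00160). Of 19 kinases and ubiquitin enzymes, Map3k8 (-1.05, adjusted p = 0.00683) and Tank (-0.86, adjusted p = 9.90e-04) were called lower and none higher. Of 9 transcription factors, the NF-kB subunits Rel (-1.72, adjusted p = 0.00358) and Relb (-1.56, adjusted p = 5.30e-04) were called lower and Nfkb1 (0.86, adjusted p = 7.32e-04) higher. Of 14 genes listed as negative regulators, Nfkbiz (-2.46, adjusted p = 0.00638) and Dusp1 (-1.55, adjusted p = 0.00969) were called lower and Usp25 (0.62, adjusted p = 0.00211) higher. The list name does not give the action of each gene in these cells, which was not tested.

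Of 10 response cytokine genes tested in cDC1s, 4 were called lower (6.56% of all genes were) and none higher. Il12b, the p40 subunit of IL-12, was at 69.8 and 100.8 TPM in WT and 2.76 and 4.82 in cKO cDC1s (-4.18, adjusted p = 1.58e-05), while in cDC2s it was at 7.32, 5.34 and 4.26 against 3.72, 5.21 and 6.24. The difference between these effects was called (-4.05, SE 0.38, adjusted p = 3.59e-04). Il1b (-4.17, adjusted p = 8.89e-04) and Ccl5 (-3.12, adjusted p = 1.08e-04) were also called lower in cDC1s, and the fourth was Tnf. In cDC2s Tnf was at 200.4, 100.2 and 132 TPM in WT and 52.0, 50.1 and 55.6 in cKO (-1.38, adjusted p = 0.00443) and Cxcl10, an interferon-induced chemokine, at 27.1, 32.8 and 27.1 against 43.6, 49.0 and 57.9 (0.77, adjusted p = 0.00666). Outside the Toll-like receptor pathway, 3 of 10 other nucleic acid sensors were called higher in cDC1s (15.8% of all genes were) and 1 lower (6.56%). The cytosolic DNA sensor Cgas was at 19.2 and 14.9 TPM in WT and 38.4 and 34.9 in cKO cDC1s (1.07, adjusted p = 0.00216), and its partner Sting1 at 43.0 and 41.9 against 88.0 and 88.7 (1.04, adjusted p = 9.71e-05), and the third was the RNA sensor Ddx58 (0.72, adjusted p = 0.00470). Sting1 also differed between the cDC1 and cDC2 effects (0.97, SE 0.13, adjusted p = 0.00241).

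Over the 10 cDC libraries, which share a table and fall into subset groups, Pearson's r of log2(TPM + 1) is a description with no test. It was used to rank the genes whose pattern was most like that of a member. For Tlr7 these included Gfra2 (r = 0.998) and Ptchd1 (0.997), for Tlr3 Fgd6 (0.999), for Tlr11 Cltrn (0.998) and Fmnl2 (0.998), and for Tlr12 Fzd1 (0.998) and Gm3336 (0.998). Members with a smaller difference between the subsets had lower values, such as Tlr13 with Slc2a6 (0.982) and Hap1 (0.980), Tlr9 with Rab3gap2 (0.981) and Fam53c (0.978), Unc93b1 with Epb41 (0.962), and Myd88 with Plod3 (0.955) and Mapkapk3 (0.955). Over the 6 pDC libraries the closest gene to Tlr7 was Nsmf (0.998), to Tlr9 Lrrc8a (0.996), to Tlr12 Myl12b (0.995) and to Unc93b1 Rassf4 (0.998).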

How the data were processed

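TPM and FPKM values deposited by the authors were used, in one table of 6 pDC libraries and one of 10 cDC libraries. Per the labels and the study's methods, BGISEQ-500 single-end reads of 50 bases were filtered with SOAPnuke, aligned with Bowtie2 2.2.5 and quantified with RSEM 1.2.12, and the submitters' processing notes also name HISAT2 2.0.4 and mm10. The reference release and the strandedness of the library are not given in the sources used here. Expected counts were not used here, so the study's DESeq2 test was replaced by limma 3.58.1 (R 4.3.3, eBayes with trend) on log2(TPM + 1), for genes with a mean of at least 1 TPM, with a shared spread over the 4 cDC groups, and Benjamini-Hochberg adjustment over all genes. A fold change on this scale understates that of low genes. The thresholds were an adjusted p of 0.01 and a log2 fold change of 0.5. The fit was tested on simulated data. Gene IDs were matched to RefSeq names on GRCm38.p6. Depth was estimated from steps of the FPKM values, and 3 reads were taken as the floor, which covers counting error only.

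Members and lists were chosen with earlier results of these data known. All 10 members were named, the 4 other Toll-like receptors, up to 3 called genes of each pathway list by size of change, Trim33, and the 2 genes most like each member, of which some are not reported here. Genes in the text outside this rule (Lyz2, Tnf in cDC1s, and marker gene examples) were chosen after their values were seen. The labels give replicate numbers but no pairing. Deviations of same-numbered WT and cKO libraries correlated at 0.31, 0.39 and 0.21 in pDCs and at -0.25, 0.25 and -0.16 in cDC2s. In cDC1s the value was -0.23 for both numbers, which 2 libraries a group force to be equal. Y-linked sums of same-numbered pDC libraries differed (177, 34.2 and 63.2 TPM in WT, 35.8, 167 and 122 in cKO). The main limma fits used no block, and in pDCs they called 119 genes, against 335 with the replicate block.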

Additional observations from a re-analysis of the deposited data

Results flagged for a closer look

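Among the 14 genes (the 10 members and the other 4 Toll-like receptors), some had cKO libraries that all lay on one side of WT in one subset and on the other side in another subset. In cDC1s, with 2 libraries of each genotype, WT and cKO values lay apart in every one of the 14. The share of all genes with such opposite sides was not counted, so the flag does not set these genes apart. Tlr5 was at 0.26 and 0.78 TPM in WT and 1.03 and 1.36 in cKO cDC1s, and lower in every cKO library of cDC2s, with a difference of effects of 1.11 (SE 0.27, limma adjusted p = 0.0293), which did not pass the threshold. Tlr8 was at 0.16 and 0.17 TPM in WT and 0.04 and 0.12 in cKO cDC1s, all values of about 3 reads or fewer (0.144 to 0.177 TPM), and higher in every cKO library of cDC2s, with a difference of effects of -0.85 (SE 0.25, limma adjusted p = 0.0538). Tlr1 was at 0.54 to 0.69 TPM in WT and 0.85 to 1.54 in cKO pDCs, while its log2 fold change was -0.50 in cDC1s and -0.32 in cDC2s (limma, neither called), with every cKO library below every WT library, and here the difference between pDCs and cDCs was not tested.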

How the results depend on the processing

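Across 1229 pairs of a result and an alternative setting, 1166 kept their direction and side of the threshold, 9 lost a call, 35 gained one and 19 reversed. In cDC1s the count of members called, 0 as reported, was 1 with FPKM, 2 with median-of-ratios scaling (Tlr11 and Tlr13 lower), 1 with quantile normalization, 1 without the trend, 3 at an adjusted p of 0.05 with no fold limit, 1 with the cDC1 libraries alone, and 0 to 1 when leaving out 1 library. In the difference of effects it was 1 at an adjusted p of 0.05 with no fold limit. Scaling bears on these counts: the median change of all cDC1 genes was 0.17 as deposited and 0.02 after median-of-ratios scaling. Leaving out a cDC1 library leaves 1 in its group, which was assumed to vary like the others.

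With the replicate block, 0 members were called in pDCs, 0 in cDC1s, 1 in cDC2s, 0 in the difference and 4 between WT cDC1s and cDC2s, where Tlr4 was lost. Chosen after seeing the data, the cDC1 libraries alone gave 1 call with the numbered replicate block and 2 with the crossed replicate block. The crossed block was added because the numbered pairs correlated negatively, so its count cannot show whether libraries are paired.

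Reversals were of values near 0. The difference of effects for Tlr2 was -0.03 with FPKM, -0.14 with median-of-ratios scaling and -0.08 with quantile normalization, and -0.05 to 0.21 when leaving out 1 library. Under that omission Tlr12 ranged from -0.08 to 0.10 in pDCs, from -0.46 to 0.05 in cDC2s and from -0.42 to 0.09 in the difference, Tlr4 from -0.02 to 0.14 and Tlr9 from -0.15 to 0.19 in cDC2s, and Unc93b1 from -0.13 to 0.05 and Myd88 from -0.20 to 0.13 in the difference. The cause was not tested. The difference of effects was not run with each subset fitted alone.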
